A study of Mus musculus with 10 samples.

Results

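The DYRK kinases (dual-specificity tyrosine-regulated kinases) were followed in the hippocampus of trisomic mice in which 1 of them, Dyrk1a, is present in 3 copies and the other 4 in 2 copies. The members were the 5 genes Dyrk1a, Dyrk1b, Dyrk2, Dyrk3 and Dyrk4, of 19938 genes measured. They were picked by name among the probe sets annotated to a single gene symbol, and the brightest probe set by mean over all arrays stood for each gene. Of 21789 such probe sets 6 named a member, since Dyrk1a had a pair of them and each paralogue had 1.

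The samples were 10 whole hippocampus RNAs from male mice aged 16 weeks, 1 array per animal, 5 per group. Dp1Rhr mice carried a tandem duplication on mouse chromosome 16 that runs from Cbr1 to Fam3b and leaves these genes at 3 copies in every cell. Control mice were littermates with 2 copies. The Dp5Yah line, which duplicates a neighbouring segment of that chromosome, had been crossed with the Dp1Rhr line to give all of them. The labels give the background as C57BL/6N, while the study's methods describe backcrosses to C57BL/6J. The duplication covers 31 measured genes, so that a change of any kinase in these mice cannot be told apart from an effect of the other genes at 3 copies. Male animals of a single age were measured, and in whole tissue fewer cells of a type and less RNA per cell cannot be told apart.

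DYRK kinases activate themselves by phosphorylating a tyrosine in their own activation loop while they are being translated, and thereafter phosphorylate serines and threonines of other proteins. DYRK1A and DYRK1B are close relatives found in nucleus and cytoplasm, whereas DYRK2, DYRK3 and DYRK4 form a second branch. DYRK1A lies on human chromosome 21, is sensitive to dosage in both directions, and phosphorylates proteins of the cell cycle, splicing and the synapse, among them tau. The paralogues lie outside the duplication, which makes them a family comparison at normal copy number within the same arrays. The question addressed was whether the third copy of Dyrk1a was visible in its RNA, and whether the rest of the family or its known partners differed as well.

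In mouse build GRCm38, Dyrk1a lies at chr16:94569947-94695519, inside the duplicated interval chr16:93607837-97504936. Dyrk1b lies at chr7:28179447-28197910, Dyrk2 at chr10:118855602-118889245, Dyrk3 at chr1:131128441-131138234 and Dyrk4 at chr6:126876020-126922083. RefSeq promoter windows of 300 bases (GRCm38.p6; 250 bases before to 50 after a start site) were found for all 5 genes, 8 windows in all because Dyrk1a had 3 and Dyrk1b a pair. The short stretches below are shown because Dyrk1a and Dyrk1b, the closest relatives, share there a match to CGCCATNTT, the core bound by the transcription factor YY1. Capitals mark the match, and both are read on the plus strand.

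Dyrk1a, chr16:94570145-94570174: tcggagcgcgCGCCATTTTgtgagatttac
Dyrk1b, chr7:28179499-28179528: ttgttgtggtCGCCATTTTgctggttgcat

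The match starts at position -51 in Dyrk1a and at 26 in Dyrk1b, with the start site counted as 0. Searched on both strands, CGCCATNTT was present in 2.38% of all 32851 promoter windows and in no window of the other 3 members. It was picked after the member sequences had been read, so that its presence is a description only. Shared runs of letters were not limited to Dyrk1a and Dyrk1b. In some window 6 of the 10 gene pairs shared one of at least 10 letters, and the longest, of 14 letters, was between Dyrk1a and Dyrk2. How often unrelated genes share such runs was not tested. The cyclic AMP element TGACGTCA was in 0 of the 8 windows against 1.79% of all, and the TATA box TATAAA in 0 against 13.6%. The GC box GGGCGG was in 5 of the 8, in Dyrk1a, Dyrk1b and Dyrk2, against 35.7% of all. The windows of Dyrk1a held 54, 30 and 3 CpG dinucleotides, those of Dyrk1b 17 and 31, that of Dyrk2 44, that of Dyrk3 32 and that of Dyrk4 5, where the median over all windows was 7. Every member except Dyrk4 thus had a window above that median.

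The arrays had near-equal distributions, with medians from 6.77 to 6.83 on the log2 scale and correlations of 0.996 to 0.998 between arrays. In limma, at a Benjamini-Hochberg adjusted p of 0.05, 125 genes were higher and 35 lower in Dp1Rhr. When each array was centred on the median of its probe sets with a single symbol, a scaling added after the data were seen, this split became 87 higher and 59 lower, and the median change over all genes shifted from -0.00 to -0.02. Markers of choroid plexus, a tissue beside the hippocampus, stood apart in control replicates 2 and 3. Their 10 genes averaged 7.08 and 7.32 in those arrays, 8.71 to 9.38 in the other controls and 8.92 to 9.78 in Dp1Rhr, with a median log2 fold change of 0.94 and no marker past the threshold. Habenula markers ran from 6.92 to 7.54 in control and from 6.96 to 8.41 in Dp1Rhr. Their median log2 fold change was 0.56, and none passed the threshold. Dp1Rhr replicates 2, 3 and 4 (8.22, 7.74 and 8.41) were above every control, while replicates 1 and 5 (6.96 and 7.12) were not. Of the 6 markers, Pou4f1 and Gpr151 lay below 6.82, the 40th percentile of mean signal over genes. Neuron markers such as Rbfox3, Snap25 and Camk2a were bright and near equal, averaging 12.6 to 12.7 in each group. Markers of the CA fields averaged 9.55 to 9.70 in control and 9.55 to 9.68 in Dp1Rhr. Oligodendrocyte markers (5 of 6 measured, such as Mbp and Mog) averaged 11.66, 11.66, 11.60, 11.72 and 11.73 in control and 11.89, 11.83, 11.89, 11.77 and 11.68 in Dp1Rhr, a median log2 fold change of 0.15 with none past the threshold. All Dp1Rhr arrays but replicate 5 were above every control in these markers, and the part of these cell types in the DYRK values was not tested beyond the choroid plexus covariate.

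Dyrk1a rose in Dp1Rhr hippocampus and was the only member that passed the test. Control mice read 11.80, 11.76, 11.70, 11.72 and 11.65 on the log2 scale (probe set 10437136), and Dp1Rhr mice 11.97, 11.97, 12.06, 11.98 and 12.01. Every Dp1Rhr animal was above every control, with a gap of 0.168 between the groups. The mean went from 11.73 ± 0.06 to 12.00 ± 0.04 (SD, n = 5 each). The log2 fold change was 0.27 ± 0.03 (SE), a ratio of 1.21 with a 95% confidence interval of 1.15 to 1.27, and the limma adjusted p over all genes was 0.0110. Of all genes 0.627% were called higher in Dp1Rhr by this rule, and 285 genes (1.43%) had a larger log2 fold change than Dyrk1a. On the log2 scale the confidence interval of 0.20 to 0.35 lies below 0.58, the value that 3 copies over 2 would give if signal followed copy number in full. As point estimates, the log2 fold changes of all 31 genes measured in the duplicated segment lay below it too, the highest being Psmg1 at 0.56. However, the 95% confidence intervals of Psmg1 (0.34 to 0.77), Vps26c (0.35 to 0.67) and Get1 (0.41 to 0.59) contain that value. Of the 30 genes other than Dyrk1a, only 19 lay above the 40th percentile of signal.

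The size of the difference in Dyrk1a held between 0.25 and 0.29 as each animal was left out in turn, while the call did not always. Without Dp1Rhr replicate 1 the log2 fold change was 0.28 with a limma adjusted p of 0.0538. With the choroid plexus score as a covariate it was 0.27 (adjusted p 0.0777), and without control replicates 2 and 3 it was 0.28 (adjusted p 0.0683). The unadjusted limma p of Dyrk1a in these fits was 1.8e-05, 8.7e-05 and 6.2e-05, against 5.0e-06 with all arrays, and the genes that passed among all tested numbered 5, 7 and 5.

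**Figure D1:**
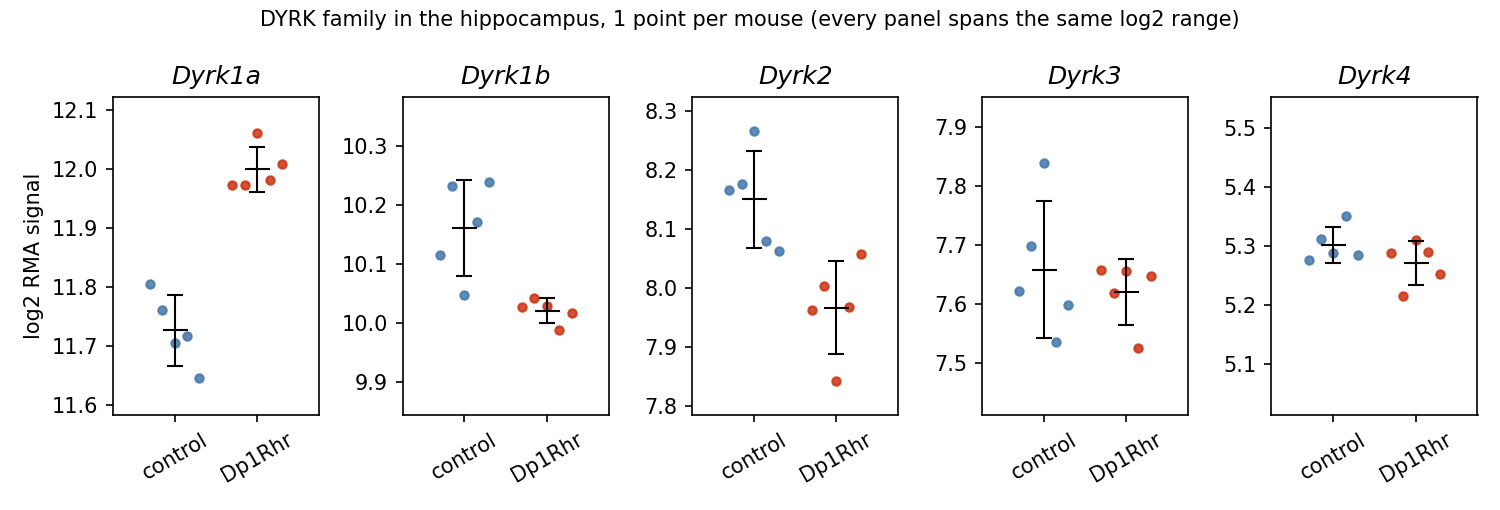
Level of each DYRK gene (log2 RMA signal, y axis) in control (blue) and Dp1Rhr (red) hippocampus, 1 point per mouse, with the mean and SD of 5 mice per group in black; each panel spans the same log2 range but has its own position, and heights are not comparable between genes. The 5 Dp1Rhr mice lie above all controls for Dyrk1a (mean 12.00 against 11.73) and just below all of them for Dyrk1b (not after a second quantile normalization) and Dyrk2 (not after centring on the array median), with overlap for Dyrk3 and Dyrk4.

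Dyrk1b, the nearest relative of Dyrk1a and known for its part in quiescence and muscle differentiation, did not pass the test. It read 10.12, 10.23, 10.05, 10.17 and 10.24 in control and 10.03, 10.04, 10.03, 9.99 and 10.02 in Dp1Rhr. All Dp1Rhr animals were below all controls, but the gap between the groups was 0.0043, and the controls spread more (SD 0.08 against 0.02). The log2 fold change was -0.14 ± 0.04 (SE; 95% confidence interval -0.22 to -0.06), with a limma p of 0.00341 before and 0.108 after adjustment over all genes.

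Dyrk2, a kinase that also serves as scaffold for a ubiquitin ligase complex, gave a similar picture. Control mice read 8.17, 8.18, 8.27, 8.08 and 8.06, and Dp1Rhr mice 7.96, 8.00, 7.84, 7.97 and 8.06. The groups were separate by 0.0037, less than the rounding of these values, with control replicate 5 and Dp1Rhr replicate 5 nearly level. The log2 fold change was -0.18 ± 0.05 (SE; 95% confidence interval -0.29 to -0.08), with a limma p of 0.00247 before and 0.0941 after adjustment. Of all genes 1.32% had a lower log2 fold change than Dyrk2 and 3.00% than Dyrk1b.

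Dyrk3, which dissolves membraneless condensates such as stress granules, read 7.62, 7.70, 7.84, 7.54 and 7.60 in control and 7.66, 7.62, 7.66, 7.53 and 7.65 in Dp1Rhr. The groups overlapped, with control replicate 3 the highest. The log2 fold change was -0.04 ± 0.05 (SE; 95% confidence interval -0.15 to 0.08), and its sign turned without control replicate 3 (0.01) or with the choroid plexus score as covariate (0.03). Dyrk4, best known from testis, read 5.28, 5.31, 5.29, 5.35 and 5.28 in control and 5.29, 5.22, 5.31, 5.29 and 5.25 in Dp1Rhr. These values lie below 6.82, the 40th percentile of mean signal over genes, and overlapped. Its log2 fold change was -0.03 ± 0.03 (SE; 95% confidence interval -0.09 to 0.03), which at this signal bounds the probe set and not Dyrk4 RNA.

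Counted over the family, groups did not overlap for 3 of the 5 members, Dyrk1a upwards and Dyrk1b and Dyrk2 downwards, where 3.52% of all genes had groups without overlap, 1.82% with Dp1Rhr higher and 1.70% with Dp1Rhr lower. The separation of Dyrk1a held under each of the 3 other scalings tried, with gaps from 0.131 to 0.160. That of Dyrk1b was lost after a second quantile normalization and that of Dyrk2 after centring on the array median. The limma adjusted p of these paralogues passed in none of the limma settings, whose direction was lower in Dp1Rhr throughout. Both genes passed with FCROS, the rank test of the study as rewritten here, at p 0.0484 for Dyrk1b and 0.0370 for Dyrk2. Under this rule 5.39% of all genes were called.

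The change of Dyrk1a differed from the change read on the probe set of each paralogue, although the dim Dyrk4 set adds little, since a difference against it comes close to restating the change of Dyrk1a. Per array, the log2 value of Dyrk1a minus that of Dyrk1b was 1.69, 1.53, 1.66, 1.54 and 1.41 in control and 1.94, 1.93, 2.03, 1.99 and 1.99 in Dp1Rhr. Since hybridization differs between probe sets, only the shift between groups is of use here, and each Dp1Rhr array lay above each control array. The shift was 0.41 (95% confidence interval 0.29 to 0.54) against Dyrk1b, 0.46 (0.32 to 0.59) against Dyrk2, 0.31 (0.17 to 0.45) against Dyrk3 and 0.30 (0.22 to 0.38) against Dyrk4. For each of the 4 pairs the groups did not overlap, and a two-sided exact permutation test over the 252 ways to assign the arrays gave p = 0.00794, the smallest it can give, which was unchanged after adjustment over the 4 pairs. The 4 shifts share the Dyrk1a values and are not independent of each other. Dyrk1a by itself already separated the groups by 0.168. Dyrk1b and Dyrk2 separated them in the other direction, so that their pairs could only give this smallest p. For those pairs the test adds nothing to the values of the single genes. How often other genes would give the same p in place of a paralogue was not tested. The Dyrk1a to Dyrk2 difference held 1 array far from the rest in each group, control replicate 3 at 3.44 and Dp1Rhr replicate 3 at 4.22, and as each animal was left out the shift stayed between 0.41 and 0.48.

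**Figure D2:**
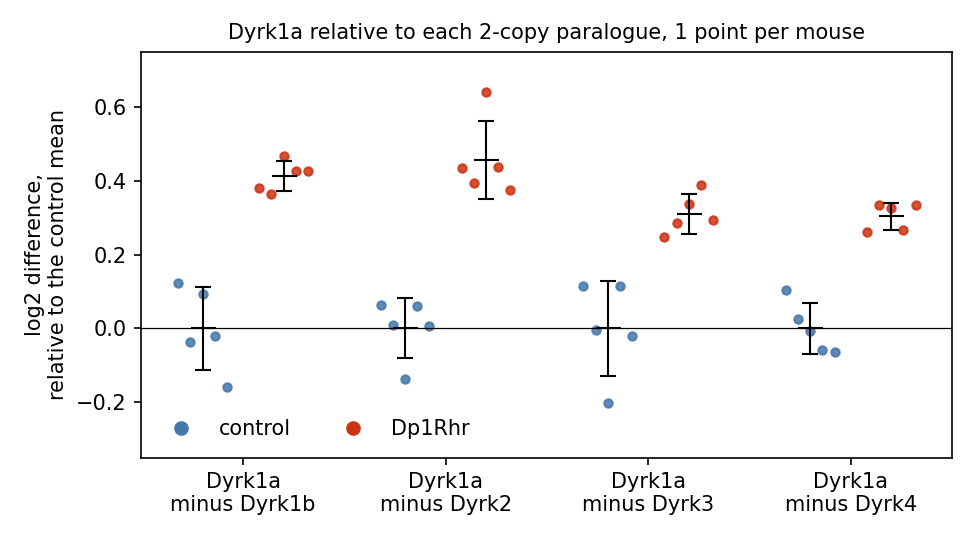
Dyrk1a log2 signal minus that of each 2-copy paralogue (x axis), drawn relative to the control mean of that pair (y axis, log2), 1 point per mouse, control in blue and Dp1Rhr in red, with mean and SD of 5 mice in black. Dp1Rhr mice lie above controls in all 4 pairs, by 0.30 to 0.46 on average.

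The separate probe sets of Dyrk1a gave changes of different size. The dimmer set (10437134) read 9.31, 9.30, 9.20, 9.28 and 9.37 in control and 9.43, 9.48, 9.45, 9.34 and 9.35 in Dp1Rhr. Of the Dp1Rhr mice 3 were above all controls, and replicates 4 and 5 fell within their range. Its log2 fold change was 0.12 ± 0.04 (SE; 95% confidence interval 0.03 to 0.21), a ratio of 1.09, and its limma adjusted p over probe sets was 0.178. In the same fit the brighter set had an adjusted p of 0.0125, where 0.477% of all probe sets were called higher.

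Per array, the brighter minus the dimmer set was larger in Dp1Rhr by 0.15 (95% confidence interval 0.03 to 0.27), with a two-sided exact permutation p of 0.0238. This comparison was added after the values were seen, the groups overlapped, and without control replicates 2 and 3 the shift was 0.19 with an exact p of 0.0536. The annotation lists 9 transcript accessions for the brighter set and 2 for the dimmer, both of which are among the 9. Which exons each set covers is not given in the sources used here, so that a transcript form and the response of single probes cannot be told apart. Averaged over both sets, Dyrk1a had a log2 fold change of 0.20 with a limma adjusted p of 0.0257.

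**Figure D3:**
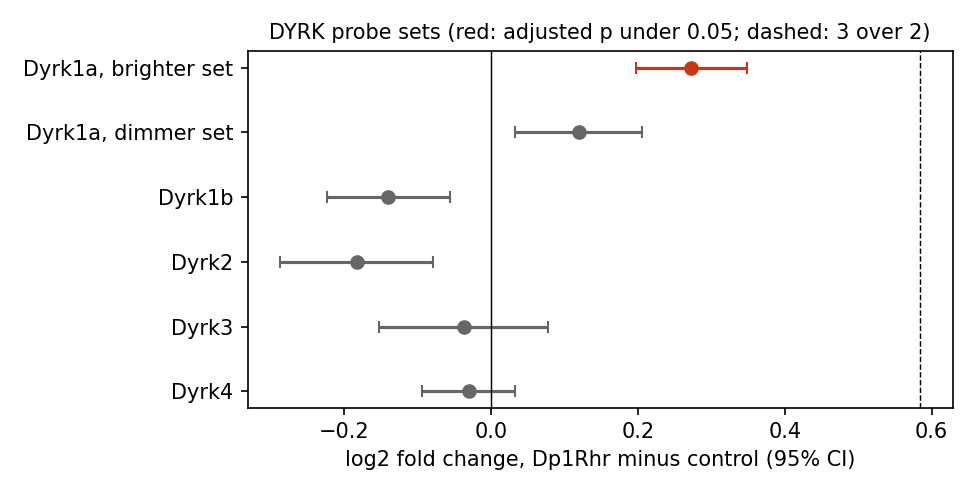
Change on the log2 scale from control to Dp1Rhr (x axis) of the 6 DYRK probe sets with 95% confidence intervals from limma, 5 arrays per group; red marks an adjusted p under 0.05 over all probe sets and the dashed line marks 0.58, the log2 of 3 over 2. The brighter Dyrk1a set lies at 0.27 and the dimmer at 0.12, both left of the dashed line, and the 4 paralogues lie at or below 0.

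Within the duplicated interval 14 of the 31 genes rose past the limma threshold, where 0.627% of all genes did. Dyrk1a ranked 14 by log2 fold change, the smallest of those that rose. Kcnj6, Hmgn1 and Pcp4 did not pass, although their groups did not overlap and Dp1Rhr was higher. The count of 14 cannot hold in every setting. Among all genes, 6 were called higher with the choroid plexus covariate and 5 without Dp1Rhr replicate 1. The other 30 had a median log2 fold change of 0.19 and a mean of 0.21, but 19 of them lay above the 40th percentile of signal, and these had a median of 0.35 and a mean of 0.31. Per array, Dyrk1a minus the mean of the other 30 genes shifted by 0.06 (95% confidence interval -0.02 to 0.14) with a two-sided exact permutation p of 0.151. Against the 19 brighter genes alone, a setting added after the data were seen, the sign turned, with a shift of -0.04 (-0.14 to 0.06; exact p 0.405). The direction thus depended on whether the dim neighbours were averaged in, and neither comparison passed. It also rested on the probe set and on single arrays: against all 30, the mean of both Dyrk1a sets gave -0.01 (exact p 0.635), and leaving out control replicate 1 gave 0.08 (exact p 0.0397).

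Its chromosomal neighbours had log2 fold changes from 0.01 to 0.51, and differences between them were not tested. On the proximal side Vps26c, a subunit of an endosomal retrieval complex, rose by 0.51 ± 0.07 (SE; adjusted p 0.0210), with arrays at 9.10 to 9.48 in control and at 9.58 to 9.91 in Dp1Rhr. Ttc3, a ubiquitin ligase, rose by 0.28 ± 0.03 (adjusted p 0.00518) and Pigp, of the glycosylphosphatidylinositol anchor pathway, by 0.33 ± 0.06 (adjusted p 0.0389). On the distal side the potassium channel genes Kcnj6 and Kcnj15 had log2 fold changes of 0.21 ± 0.05 (adjusted p 0.0709) and 0.01 ± 0.03 (adjusted p 0.918), and the endothelial transcription factor gene Erg had 0.22 ± 0.05 (adjusted p 0.0760). Ttc3 and Dyrk1a, both bright and with small errors, thus had nearly the same log2 fold change, whereas the dim Kcnj15, at 5.91 to 6.07 in both groups, did not pass the test. All these p-values are from limma over all genes. The call of Ttc3 held in 10 of the 10 fits that left out 1 array. That of Vps26c was lost in 4 of them (adjusted p up to 0.0747) and with the choroid plexus covariate (0.106). That of Pigp was lost in 8 of the 10 (up to 0.126), with that covariate (0.131) and after a second quantile normalization (0.0523). It was also lost with centring on the probe sets with a single symbol (0.0513). Calls were gained as well. Kcnj6 and Erg passed with FCROS (p 0.0313 and 0.0330), which called 5.39% of all genes. Erg also passed with array weights (limma adjusted p 0.0405), and its limma adjusted p fell as low as 0.0459 as arrays were left out.

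Known substrates and partners of the DYRK kinases were next examined at the RNA level. Of 48 genes listed 44 were measured, and the others were not analysed here. None rose and none fell past the threshold, where 0.802% of all genes did in either direction. Their log2 fold changes ran from -0.22 to 0.13 with a median of -0.01, beside -0.00 over all genes. At an unadjusted limma p under 0.05 there were 7 of the 44 (15.9%), close to the 15.0% of all genes. With FCROS there was 1, where 5.39% of all genes were called. Groups did not overlap for 3, or 6.82%, namely Notch1, Gys1 and Dnm1, where 3.52% of all genes had groups without overlap.

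Notch1, a receptor of cell fate signalling that DYRK1A phosphorylates, had the smallest p of the list. It read 9.29, 9.18, 9.10, 9.23 and 9.25 in control and 8.99, 9.00, 9.06, 8.85 and 9.07 in Dp1Rhr, all of the latter below all controls. The log2 fold change was -0.22 ± 0.05 (SE) with a limma adjusted p of 0.0689, which became 0.0405 with array weights. Gys1, muscle glycogen synthase, read 8.36 to 8.44 in control and 8.48 to 8.63 in Dp1Rhr, a log2 fold change of 0.13 ± 0.03 (adjusted p 0.0896). The endocytic GTPase gene Dnm1 read 12.96 to 13.07 in control and 12.87 to 12.96 in Dp1Rhr, the groups all but touching, a log2 fold change of -0.10 ± 0.03 (adjusted p 0.158), and the microtubule-associated protein gene Map1b had -0.09 ± 0.03 (adjusted p 0.209).

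The genes for tau and the amyloid precursor, substrates for which DYRK1A is best known in Down syndrome, had log2 fold changes of -0.06 (Mapt, 95% confidence interval -0.16 to 0.04) and -0.00 (App, -0.06 to 0.05). The splicing factor genes Srsf1, Srsf2 and Sf3b1 had 0.02, -0.01 and -0.01, and Srsf6 had 0.13 with an interval of -0.03 to 0.28. Among the 4 NFAT genes, whose products leave the nucleus after phosphorylation by DYRK kinases, values ran from -0.07 for Nfatc3 to 0.03 for Nfatc1. Ccnd1, the cyclin that DYRK1A and DYRK1B mark for degradation, had 0.07 (-0.03 to 0.17) and Cdkn1b, encoding the inhibitor p27, had -0.02 (-0.09 to 0.06). Dcaf7, the adaptor that binds DYRK1A and DYRK1B, had -0.10 (-0.18 to -0.01) with a limma adjusted p of 0.266. Phosphorylation is not seen by these arrays, so that the values speak of RNA alone.

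The DREAM complex silences cell cycle genes in resting cells and is assembled after DYRK1A phosphorylates LIN52. All 12 genes listed for the DREAM and MuvB complexes were measured, among them Mybl2, which is not a DREAM subunit. None passed the threshold, where 0.802% of all genes did in either direction. None had an unadjusted limma p under 0.05, where 15.0% of all genes did. With 12 genes, of which 10 lay above the 40th percentile of signal, such counts say little. The log2 fold changes ran from -0.10 to 0.06 with a median of -0.00. Lin52 itself had 0.00 (95% confidence interval -0.11 to 0.12). The genes with the smallest p were Tfdp2 at -0.10 (adjusted p 0.382), E2f5 at 0.06, Mybl2 at 0.05 and Lin54 at -0.04.

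Of the related CMGC kinases, the larger family to which DYRKs belong, 13 of 14 listed genes were measured (Clk2 was not analysed here). None passed the threshold, where 0.802% of all genes did in either direction, while 11 of the 13 had log2 fold changes below 0. At an unadjusted limma p under 0.05 there were 4 (30.8%), beside 15.0% of all genes. The median was -0.03, beside -0.00 over all genes, and it was -0.004 with the choroid plexus score as covariate. Clk1 and Clk4, kinases of splicing factors, had the lowest values, -0.41 ± 0.12 (SE; adjusted p 0.139) and -0.32 ± 0.09 (adjusted p 0.127). Clk1 read 9.01, 9.35, 9.59, 9.00 and 9.36 in control and 8.59, 9.16, 8.77, 8.84 and 8.93 in Dp1Rhr. Dp1Rhr replicate 2 lay inside the control range. Control replicates 2 and 3, both low in choroid plexus markers, read 9.35 and 9.59, and control replicate 5, which was not, read 9.36. What set these levels was not tested. With the choroid plexus score as covariate the log2 fold change of Clk1 was -0.24 (adjusted p 0.523) and that of Gsk3b -0.04 (adjusted p 0.646), and without control replicates 2 and 3 that of Clk1 was -0.27. Gsk3b, a kinase that phosphorylates many sites primed by DYRKs, read 11.24 to 11.31 in control and 11.19 to 11.22 in Dp1Rhr without overlap, a log2 fold change of -0.07 ± 0.03 (adjusted p 0.213), and Hipk3 had -0.08 (adjusted p 0.203).

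**Figure D4:**
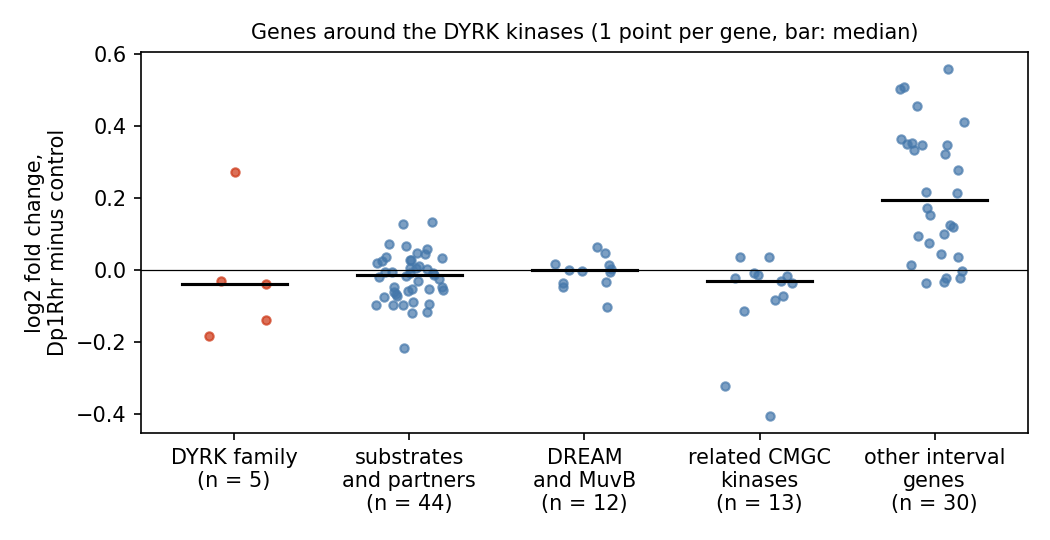
Change on the log2 scale from control to Dp1Rhr (y axis) of each gene in the DYRK family (red), its substrates and partners, the DREAM and MuvB genes, the related CMGC kinases and the other genes of the duplicated interval (blue), 1 point per gene, with the median as a bar; 1 gene, Lin52, is in both the second and the third list. Dyrk1a at 0.27 lies above the median of all other interval genes (0.19) and below that of the 19 brighter ones (0.35), while the 3 lists have medians of -0.01, -0.00 and -0.03.

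The genes whose levels over the 10 arrays were most like Dyrk1a were Tdo2 (Pearson r 0.963), Dscam (0.949), Clybl (0.947), Cav1 (0.938) and Asnsd1 (0.934). Dscam, a neuronal adhesion gene, lies in the duplicated interval and the other 4 on other chromosomes. These coefficients contain the difference between the groups, and correlations of the deviations from the group means were 0.675, 0.713, 0.603, 0.868 and 0.800. Tdo2, which encodes tryptophan dioxygenase and was listed as a dentate gyrus marker, rose by 0.25 (limma adjusted p 0.0210), a call lost with the choroid plexus covariate (0.0681) and in 4 of the 10 fits that left out 1 array (up to 0.0747). Dentate gyrus markers averaged 9.45 to 9.63 in control and 9.58 to 9.71 in Dp1Rhr, with Tdo2 the only 1 of the 6 that passed; their part in the level of Dyrk1a was not tested. Within the family, deviations of Dyrk1a from the group means correlated at -0.204 with Dyrk1b, -0.00 with Dyrk2, 0.111 with Dyrk3 and 0.169 with Dyrk4. All are over the same 10 arrays, which share a normalization.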

How the data were processed

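Per the labels, total RNA of 5 Dp1Rhr and 5 control hippocampi was hybridized to Affymetrix Mouse Gene 1.0 ST arrays. The authors processed the scans with RMA and deposited log2 values; limma and mm10 are further names in the submitters' processing notes. RMA equalizes the arrays' distributions, so that a shift of all genes at once would not show. Of 35556 probe sets, 21789 had 1 symbol in the platform annotation, 1621 several and 12146 were not listed. Where a gene had several sets (999 genes) the brightest was kept. Coordinates came from RefSeq (21698 sets matched).

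Groups were compared in limma 3.58.1 under R 4.3.3 (lmFit, eBayes, two-sided, Benjamini-Hochberg over 19938 genes, threshold 0.05), a fit tested on simulated data. limma was used rather than the study's FCROS, of which a version rewritten here was an alternative (trim 0.25). FCROS calls the tails of a rank distribution at fixed limits, here 0.025 and 0.975. Differences between Dyrk1a and other genes were tested by exact permutation. With 5 arrays per group, biological replicates by the labels, their number sets the precision. Members and lists were chosen with earlier results of these data known. Named were all members and their probe sets, up to 4 genes per list with the smallest p, the 3 measured genes on either side of Dyrk1a and the 5 genes most correlated with it; others (Mapt, App, Srsf1, Srsf2, Sf3b1, Srsf6, Nfatc1, Nfatc3, Ccnd1, Cdkn1b, Dcaf7, Lin52) were named after their values were seen. Alternatives were leaving out arrays, other scalings, a signal filter, the mean of probe sets, each probe set on its own, trend and robust eBayes, array weights, a choroid plexus covariate, a replicate block and FCROS.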

Additional observations from a re-analysis of the deposited data

Results flagged for a closer look

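Among 70 sets of 5 values checked for a sample far from the others, 2 held one, and chance gives about 1 in 20. Both belong to the difference between Dyrk1a and Dyrk2. In control, replicate 3 was lowest at 3.44 on the log2 scale, with the other 4 between 3.58 and 3.64. In Dp1Rhr, replicate 3 was highest at 4.22, with the other 4 between 3.95 and 4.01.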

How the results depend on the processing

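Over 44 results, 826 of 921 values under other settings kept the direction and side of the threshold or moved little. Dyrk1a was higher in Dp1Rhr under every setting tried (log2 fold change 0.20 to 0.29), but its limma adjusted p was above 0.05 with the choroid plexus covariate (0.27, adjusted p 0.0777), without control replicates 2 and 3 together (0.28, 0.0683) and without Dp1Rhr replicate 1 (0.0538). The brighter probe set gave 0.27 (0.0784) and 0.28 (0.0780) in the first 2 of these, and 0.0612 and 0.0527 without Dp1Rhr replicates 1 and 2. The number of members called, 1, was 0 in these settings and 3 with FCROS, and that of member probe sets was likewise 0 or, with FCROS, 2. As each array was left out, Dyrk1a and its brighter set ran from 0.25 to 0.29 and both counts from 0 to 1. Of the list counts of 0, substrates and partners (44 genes) became 1 with FCROS and 1 with array weights, and the CMGC kinases (13 genes) became 2 with FCROS. For all genes FCROS called 5.39% and array weights 280 of 19938, and for probe sets FCROS called 1169 of 21789.

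Replicate numbers did not pair the arrays: deviations of same-numbered arrays correlated at 0.124, -0.327, -0.337, -0.0825 and 0.0685. With a replicate block Dyrk1a was 0.27 (adjusted p 0.0988), its brighter set 0.27 (0.107), both counts were 0 and 4 genes were called in all. Under the block the shifts against Dyrk1b, Dyrk2, Dyrk3 and Dyrk4 (0.41, 0.46, 0.31 and 0.30) and between the Dyrk1a probe sets (0.15) had p = 0.0625, the smallest that an exact sign-flip test of 5 pairs can give. For Dyrk1b and Dyrk2 that p was fixed by the separate groups of the single genes.

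Without control replicates 2 and 3 the shift between the probe sets was 0.19 (exact p 0.0536). Dyrk1a minus the other interval genes turned to -0.014 with the mean of probe sets and to -0.038 over interval genes above the 40th percentile alone, and against all 30 ran from 0.039 to 0.082 as arrays were left out. Signs near 0 turned for Dyrk3, at 0.029 with the choroid covariate and 0.036 without control replicates 2 and 3, and running from -0.068 to 0.0076 (without control replicate 3) as arrays were left out. They turned for Kcnj15, at -0.0082 with centring on the named probe sets, and running from -0.0094 (without control replicate 3) to 0.030 as arrays were left out, with -0.0015 without Dp1Rhr replicate 3. The 160 genes called became 1075 with FCROS, 280 with array weights, 7 with the choroid covariate, 5 without control replicates 2 and 3, and 5 to 284 as single arrays were left out. The causes were not tested. Signal over background limits Dyrk4 and Kcnj15.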
